A study of Mus musculus with 9 samples.

Results

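The genes described here make cholesterol and fatty acids, and they were followed in the cortex of newborn mice with raised Sonic hedgehog (SHH) signalling. The set holds 31 genes, chosen by name as enzymes and regulators of these pathways. They are 31 of 22496 genes in the table of ShhN IUE and wild-type libraries and 31 of 23624 genes in the table of SmoM2 and wild-type libraries. By role, 7 act in the mevalonate steps, 11 lead on to cholesterol, 5 control the pathway, 2 move sterols between membranes and 6 make fatty acids.

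RNA from dissected cortex was sequenced in bulk at postnatal day 0, in 3 libraries for each of 3 groups. ShhN IUE mice received ShhN, the amino-terminal signalling fragment of SHH, by in utero electroporation, which reaches only some of the cells lining the ventricle. SmoM2 mice carried hGFAP-Cre with the SmoM2f allele, so that an active form of Smoothened was switched on in cells in which the human GFAP promoter had driven Cre, and in the progeny of those cells. Wild-type mice were littermates, and every group was bred on a mix of the C57BL/6J, 129S6 and CD1 strains. The labels give no electroporated control, so an effect of the electroporation itself and one of ShhN cannot be told apart. They also leave unstated whether each library is another animal, and p-values therefore cover only the spread among these libraries, which may be technical.

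Cholesterol is built from acetyl-CoA through mevalonate, the isoprenoids and squalene, and then through a run of sterol intermediates. The SREBP transcription factors, encoded by Srebf1 and Srebf2, are held in the endoplasmic reticulum with SCAP and the INSIG proteins while sterols are plentiful, and they reach the nucleus and turn on the enzymes when sterols run low. The brain makes its own cholesterol, since little crosses from blood, and growing progenitors and myelinating cells draw on it. Sterols also take part in SHH signalling itself: SHH carries a covalently attached cholesterol, which the ShhN fragment lacks, and Smoothened binds sterols.

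Each table holds the 3 wild-type libraries with counts of its own, so each group was set against the wild type of its own table. Wild-type counts of 22 of the 31 genes agreed between the tables within 0.1 on the log2 scale, and those of Acat2, Tm7sf2, Msmo1, Hsd17b7, Dhcr7, Srebf1, Stard4, Fasn and Elovl6 did not. The widest gap was in Elovl6, with 4662 wild-type counts in the ShhN IUE table and 2446 in the SmoM2 table.

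Totals were 15376071 to 19604672 counts in ShhN IUE libraries, 23625702 to 26923127 in SmoM2 libraries and 18610507 to 21694348 in wild-type libraries. Levels are given in CPM, counts scaled to a TMM-normalised library size of 1e+06. Gli1, a direct target of SHH signalling, reached 26.0, 27.7 and 68.9 CPM in ShhN IUE libraries 1 to 3, against 5.65, 9.13 and 7.75 CPM in wild type. It reached 47.3, 42.7 and 49.96 CPM in SmoM2 libraries, against 5.63, 9.14 and 7.71 CPM in wild type of that table. Ptch1, the SHH receptor and also a target, rose by 2.17 ± 0.37 on the log2 scale in ShhN IUE and by 2.80 ± 0.18 in SmoM2 (edgeR adjusted p = 0.00455 and 0.000136). ShhN IUE library 3 stood apart from the other two in Gli1, and also in markers of the meninges, whose summed level was 16.4, 26.6 and 765 CPM in ShhN IUE libraries 1 to 3, against 12.3, 468 and 169 CPM in wild type.

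Markers of other cells were counted as rising or falling where the edgeR adjusted p was under 0.05. Among all genes tested, 16.1% rose and 17.2% fell in ShhN IUE, and 9.59% rose and 9.29% fell in SmoM2. The marker lists are small, and whether any of them differs from all genes was not tested. All 8 markers of cycling cells rose in ShhN IUE and all 8 in SmoM2, with summed levels of 380.4 to 459 CPM in ShhN IUE against 121 to 158 CPM in wild type, and 317 to 449 CPM in SmoM2 against 120.2 to 156 CPM in wild type. Of 7 radial glia markers, 5 rose in ShhN IUE and 4 in SmoM2, and of 8 oligodendrocyte lineage markers 6 and 7 rose. Summed oligodendrocyte lineage levels were 509 to 654 CPM in ShhN IUE against 323 to 356 CPM in wild type, and 588 to 648 CPM in SmoM2 against 324 to 361 CPM in wild type. Of 8 neuron markers, 1 rose and 3 fell in ShhN IUE, and 0 rose and 1 fell in SmoM2, with summed levels of 7466 to 8742 CPM in ShhN IUE against 7304 to 8822 CPM in wild type. Among 7 astrocyte markers, 3 rose and 1 fell in ShhN IUE and 2 rose in SmoM2, and among 8 microglia markers 2 rose in each. Endothelial and mural markers rose for 2 of 7 in ShhN IUE and 0 of 7 in SmoM2, blood markers for 0 of 4 tested and 2 of 5, meningeal markers for 0 of 7 in each, and choroid plexus and ependymal markers for 2 of 3 tested and 2 of 4. A marker near 0 in wild type can pass the filter on low counts only through the group where it is high, which fixes its direction. The largest blood value in SmoM2, a log2 fold change of 9.16, is of this kind and is no sign of more blood. Summed blood levels overlapped, at 177 to 414 CPM in SmoM2 against 131 to 237 CPM in wild type. With single libraries left out, the cycling markers that rose numbered 7 to 8 in ShhN IUE and 8 in SmoM2, the radial glia markers 3 to 5 and 4 to 5, and the oligodendrocyte lineage markers 5 to 6 and 4 to 7. Several of the other counts rested on single libraries. Microglia markers that rose numbered 1 to 4 in ShhN IUE and 0 to 5 in SmoM2, and endothelial and mural markers 0 to 3 and 0 to 2, all highest without wild-type library 2. Astrocyte markers that rose numbered 1 to 2 in ShhN IUE, with 1 without wild-type library 3, and 0 to 3 in SmoM2, with 3 without wild-type library 2. Neuron markers in ShhN IUE gave 0 to 2 rises and 1 to 3 falls, and without ShhN IUE library 3 they gave 2 rises and 1 fall while 5 meningeal markers fell. Blood markers that rose in SmoM2 numbered 1 to 2, and choroid plexus and ependymal markers 1 without any one library. In ShhN IUE the choroid plexus and ependymal markers gave 2 rises in every such fit, with 0 to 1 falls. Neuron markers in SmoM2 gave 0 rises and 1 fall in every such fit, and meningeal markers there 0 of either. The part of cell composition in the lipid gene results was not tested. In bulk tissue a change in the number of cells of a type and a change in RNA per cell cannot be told apart.

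Promoters are shown for the 3 genes that rose in both models (Srebf1, Acly and Dhcr7) and for Hmgcs1, added after its match was seen because it held the only match to the sterol response element core. Each run is the RefSeq window of GRCm38.p6 from 250 bases before to 50 bases after a transcription start, read 5′ to 3′ on the strand of the gene. Capitals mark matches on either strand to the sterol response element core TCACNCCAC, to which SREBPs bind, the CCAAT box, to which NF-Y binds, and the GC box GGGCGG, to which SP1 binds. No match overlaps another in these windows.
Srebf1, chr11:60222532-60222831, minus strand: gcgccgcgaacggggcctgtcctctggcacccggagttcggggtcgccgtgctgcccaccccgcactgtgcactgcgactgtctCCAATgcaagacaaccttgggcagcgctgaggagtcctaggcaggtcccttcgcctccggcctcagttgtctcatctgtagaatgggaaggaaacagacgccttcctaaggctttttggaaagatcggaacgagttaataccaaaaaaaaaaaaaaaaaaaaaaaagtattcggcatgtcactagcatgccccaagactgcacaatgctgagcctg
Acly, chr11:100527951-100528250, minus strand: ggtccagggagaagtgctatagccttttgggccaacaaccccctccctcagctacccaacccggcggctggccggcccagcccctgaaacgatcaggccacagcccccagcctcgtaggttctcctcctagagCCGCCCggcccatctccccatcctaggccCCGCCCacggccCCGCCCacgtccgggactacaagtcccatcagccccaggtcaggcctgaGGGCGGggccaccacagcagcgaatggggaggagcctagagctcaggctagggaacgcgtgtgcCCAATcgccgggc
Dhcr7, chr7:143822917-143823216, plus strand: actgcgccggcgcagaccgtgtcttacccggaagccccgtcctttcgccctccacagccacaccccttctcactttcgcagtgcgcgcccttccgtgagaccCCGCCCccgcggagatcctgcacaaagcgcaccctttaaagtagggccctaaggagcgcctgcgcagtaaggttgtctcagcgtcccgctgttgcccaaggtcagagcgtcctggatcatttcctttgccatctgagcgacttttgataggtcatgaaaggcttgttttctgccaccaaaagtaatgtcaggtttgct
Hmgcs1, chr13:119690101-119690400, plus strand: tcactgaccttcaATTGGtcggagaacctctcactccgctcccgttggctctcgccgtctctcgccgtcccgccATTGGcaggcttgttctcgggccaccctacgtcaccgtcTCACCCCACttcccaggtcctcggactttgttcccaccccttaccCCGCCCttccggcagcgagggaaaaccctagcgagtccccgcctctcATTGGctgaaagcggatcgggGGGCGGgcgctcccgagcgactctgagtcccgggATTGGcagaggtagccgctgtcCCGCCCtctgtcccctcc

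The Srebf1 window held 1 CCAAT box. The Acly window held 4 GC boxes and 1 CCAAT box, and the Dhcr7 window 1 GC box. Hmgcs1 held the sterol response element core at position -137 from its start, with 4 CCAAT boxes and 3 GC boxes around it. RefSeq windows were matched for 25 of the 31 genes. The element core was found in 1 of these 25 (4%), against 1.22% of 27025 promoters in the genome and 1.06% of the 11285 promoters of genes tested in both comparisons. A CCAAT box was found in 19 (76%), against 38% and 38.5%, and a GC box in 19 (76%), against 35.9% and 63.6%. A match describes the letters of these windows and is not a binding site.

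Levels per transcript length, in fragments scaled to transcript length and library size (FPKM, as deposited), spanned 134.7-fold among the 31 genes in wild type of the ShhN IUE table. Scd2, the main fatty acid desaturase gene of brain, was highest, at 213 ± 22.3 FPKM (SD, n = 3), and Hmgcs1, whose enzyme makes the precursor of mevalonate, stood next at 194 ± 29.2 FPKM. These neighbours did not differ beyond their spread. Fasn, the fatty acid synthase gene, followed at 66.6 ± 3.17 FPKM and Srebf2, the main SREBP gene for cholesterol synthesis, at 56.2 ± 4.93 FPKM. The next in order were the squalene synthase gene Fdft1 at 43.5 ± 4.11 FPKM, the acetoacetyl-CoA thiolase gene Acat2 at 34.7 ± 1.97 FPKM and Acly, whose enzyme makes cytosolic acetyl-CoA from citrate, at 25.7 ± 2.02 FPKM. At the low end, 9 genes lay under 5 FPKM, among them Srebf1 at 4.41 ± 0.375 FPKM, Dhcr7 at 4.29 ± 1.21 FPKM and, lowest of all, the sterol isomerase gene Ebp at 1.58 ± 0.365 FPKM. In wild type counted with SmoM2, 7 genes lay under 5 FPKM, and Scd2, Hmgcs1, Fasn and Srebf2 were the 4 above 50 FPKM in both tables. The genes that rose, described below, came from both ends of this order.

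**Figure D1:**
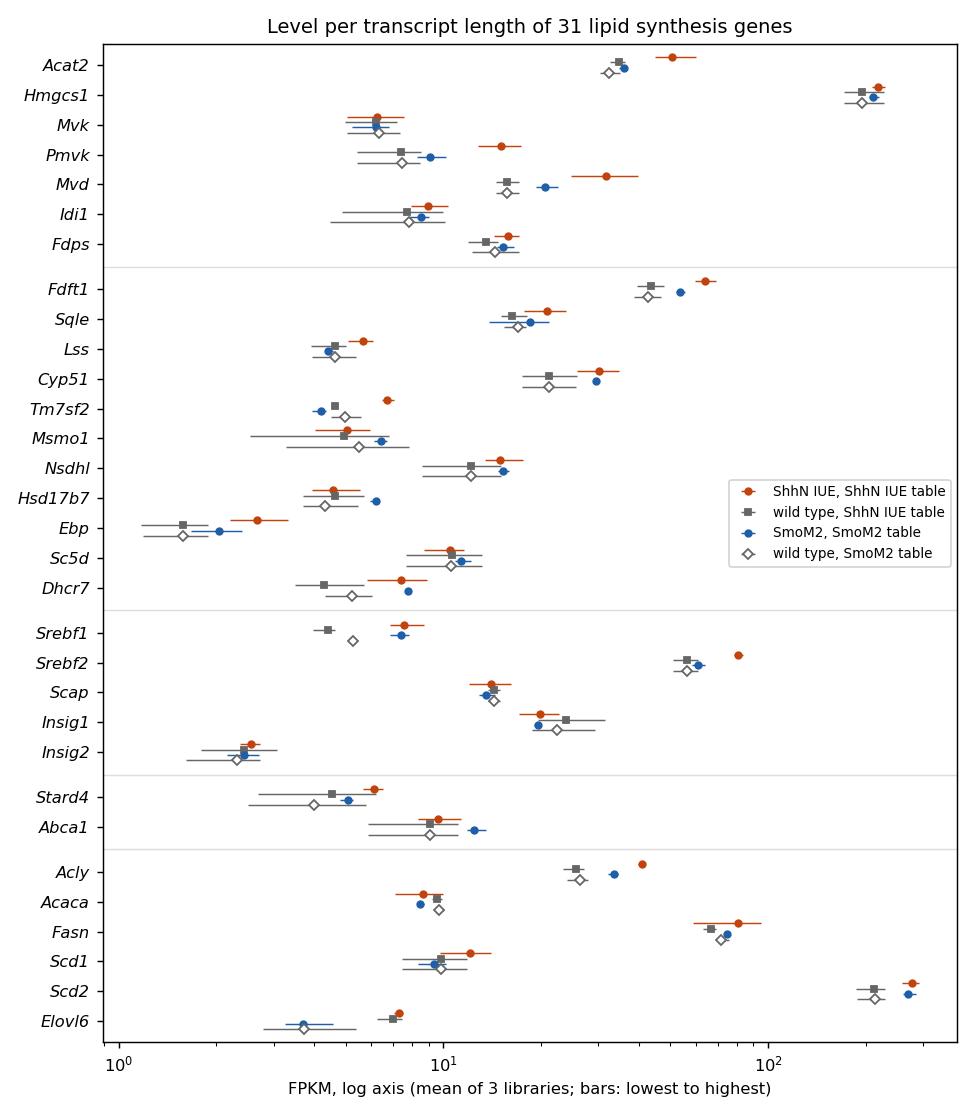
Mean FPKM of each of the 31 genes on a log axis, with bars from the lowest to the highest of 3 libraries, for ShhN IUE and its wild type and for SmoM2 and its wild type. Scd2 and Hmgcs1 stand highest in all groups and Ebp and Insig2 lowest, and the ShhN IUE points of Pmvk, Mvd and Srebf2 lie beyond the wild-type bars.

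In ShhN IUE cortex 10 of the 31 genes rose and 0 fell relative to wild type, with 21 not past the test. A gene is said to rise or fall where the edgeR quasi-likelihood adjusted p, by Benjamini-Hochberg over all genes tested, was under 0.05. All 31 passed the filter on low counts, and over all 16180 genes tested 16.1% rose and 17.2% fell. The median log2 fold change was 0.25 over the 31 genes and -0.0038 over all genes tested, and 24 of the 31 lay above 0, against 49.7% of all genes. In 10 genes the 3 ShhN IUE libraries all lay above the 3 wild-type libraries and in 0 all lay below, against 24.5% and 24.9% of all genes. At an unadjusted p under 0.05, 13 genes were higher and 0 lower, and limma-voom and DESeq2 also called 0 lower. The share of all genes at this unadjusted cut was not counted, here or in the later comparisons. Such counts therefore cannot be set against a background. After adjustment 33.3% of all genes passed in either direction. The genes that rose stood in each role except sterol transport.

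Among the 7 mevalonate genes 3 rose. Gene positions below are those of the deposited tables, for which the processing notes name GRCm38. Mvd, the mevalonate pyrophosphate decarboxylase gene (chr8:122433596-122443422), had 54.2, 70.1 and 41.8 CPM in ShhN IUE libraries, against 26.6, 26.9 and 30.9 CPM in wild-type libraries. Pmvk, the phosphomevalonate kinase gene (chr3:89454541-89469013), had 46.3, 40.1 and 52.4 CPM in ShhN IUE, against 27.8, 25.7 and 17.4 CPM in wild type. For both genes every ShhN IUE library lay above every wild-type library, and their rises were the largest among the 31 genes, at 0.98 ± 0.19 for Mvd and 0.97 ± 0.19 for Pmvk (log2 fold change ± SE, edgeR adjusted p = 0.0067 and 0.00747). Acat2 (chr17:12942890-12960747) had 156, 210.1 and 157 CPM in ShhN IUE, against 129, 125 and 116 CPM in wild type. It rose by 0.50 ± 0.13 (edgeR adjusted p = 0.0222), with library 2 the highest. The call did not hold without wild-type library 2 or without wild-type library 3.

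The other 4 mevalonate genes did not pass. Hmgcs1 ran at 651 to 742 CPM in ShhN IUE and 575 to 723 CPM in wild type, with a log2 fold change of 0.13 ± 0.11. The mevalonate kinase gene Mvk, which acts just before Pmvk, had a log2 fold change of -0.03 ± 0.20, with a 95% interval from -0.49 to 0.42. That of Idi1, the isomerase gene that follows Mvd, was 0.18 ± 0.24, and that of the farnesyl diphosphate synthase gene Fdps was 0.18 ± 0.13. Pmvk and Mvd passed, and the genes for the steps on either side of them did not. Differences between genes were not tested. The 95% interval of Idi1, from -0.38 to 0.74, overlapped that of Mvd, from 0.55 to 1.41.

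Of the 11 genes that lead on to cholesterol 3 rose. Fdft1 (chr14:63145153-63177793), whose enzyme joins farnesyl diphosphates into squalene, had 179, 198 and 164 CPM in ShhN IUE, against 118, 122 and 139 CPM in wild type. The groups did not overlap and the log2 fold change was 0.51 ± 0.11 (edgeR adjusted p = 0.01). Tm7sf2 (chr19:6062821-6068373), a sterol reductase gene, had 47.4, 50.2 and 44.5 CPM in ShhN IUE, against 34.4, 32.2 and 34.1 CPM in wild type. It rose by 0.50 ± 0.11 (edgeR adjusted p = 0.00999), again with no overlap. Both values are uncertain to a degree: the exons of Fdft1 share 18.3% of their bases with Ctsb on the opposite strand and those of Tm7sf2 share 12.1% with Vps51 on the same strand, and the labels do not say whether counting used the strand. Among the other genes called below, Cyp51 shares 3.76% of its exonic bases with Akap9 and Srebf1 1.93% with Rai1, both on the opposite strand, and among those not called Fdps shares 26.7% with Gm43738 on the same strand.

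Dhcr7 (chr7:143823145-143848410), the reductase gene of the last step to cholesterol, had 54.5, 64.9 and 40.7 CPM in ShhN IUE, against 26.5, 26.5 and 42.3 CPM in wild type. It rose by 0.75 ± 0.23 (edgeR adjusted p = 0.0393), although ShhN IUE library 3 lay under wild-type library 3. The call did not hold without ShhN IUE library 1 or 2, or without wild-type library 1 or 2. Next in order of p, and not past the threshold, came Ebp with a log2 fold change of 0.71 ± 0.24, the lanosterol demethylase gene Cyp51 with 0.48 ± 0.17 and the squalene epoxidase gene Sqle with 0.32 ± 0.13 (edgeR adjusted p = 0.0571, 0.0635 and 0.0959). The lanosterol synthase gene Lss and the C4-demethylation gene Nsdhl had values of 0.24 ± 0.14 and 0.25 ± 0.22. Msmo1, Hsd17b7 and Sc5d, which also modify the sterol nucleus, lay between -0.07 and -0.01, with standard errors of 0.20 to 0.32.

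Both SREBP genes rose. Srebf1 (chr11:60199089-60222581) had 65.6, 63.1 and 77.1 CPM in ShhN IUE, against 44.4, 36.1 and 43.4 CPM in wild type, a log2 fold change of 0.73 ± 0.13 (edgeR adjusted p = 0.00552). Srebf2 (chr15:82147266-82205376) had 399, 416 and 377 CPM in ShhN IUE, against 316, 279 and 260.1 CPM in wild type, a log2 fold change of 0.48 ± 0.10 (edgeR adjusted p = 0.00954). In neither gene did the groups overlap. The genes for SCAP and the INSIG proteins did not pass: Scap had a log2 fold change of -0.07 ± 0.13, Insig1 of -0.30 ± 0.21 and Insig2 of 0.03 ± 0.20. Insig1, itself a well known SREBP target, had the lowest value of the 31 genes, with 68.9, 78.1 and 56.8 CPM in ShhN IUE against 70.4, 69.5 and 111 CPM in wild type. The groups overlapped, and wild-type library 3 was the highest of the 6. The sterol carrier gene Stard4 and the cholesterol exporter gene Abca1 had values of 0.39 ± 0.26 and 0.05 ± 0.22.

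Of 6 fatty acid genes 2 rose. Acly (chr11:100476353-100528000) had 339, 340.0 and 314 CPM in ShhN IUE, against 227, 218 and 196 CPM in wild type. Its rise of 0.63 ± 0.09 had the smallest adjusted p of the 31 genes (edgeR, 0.00249). Scd2 (chr19:44293676-44306864) had 1410, 1584 and 1479 CPM in ShhN IUE, against 1062, 1194 and 1274 CPM in wild type, a rise of 0.34 ± 0.10 (edgeR adjusted p = 0.0331). In both genes the groups were apart, but the call for Scd2 did not hold without any one of the ShhN IUE libraries, or without wild-type library 1 or 2. The neighbouring desaturase gene Scd1, similar in sequence, did not pass, at 0.26 ± 0.19.

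The other fatty acid genes did not pass. Acaca, the acetyl-CoA carboxylase gene that follows Acly, had 181, 202 and 138 CPM in ShhN IUE, against 194, 197 and 197 CPM in wild type, a log2 fold change of -0.18 ± 0.14. Fasn had 1227, 1324 and 786 CPM in ShhN IUE, against 913, 928 and 983 CPM in wild type, a log2 fold change of 0.24 ± 0.18. In both genes ShhN IUE library 3 was the lowest of all 6 libraries. Without it, Fasn, Sqle and Cyp51 passed and Scd2 did not, for 12 rises in all, while 12.7% of all genes rose. The elongase gene Elovl6 had a log2 fold change of 0.02 ± 0.11.

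**Figure D2:**
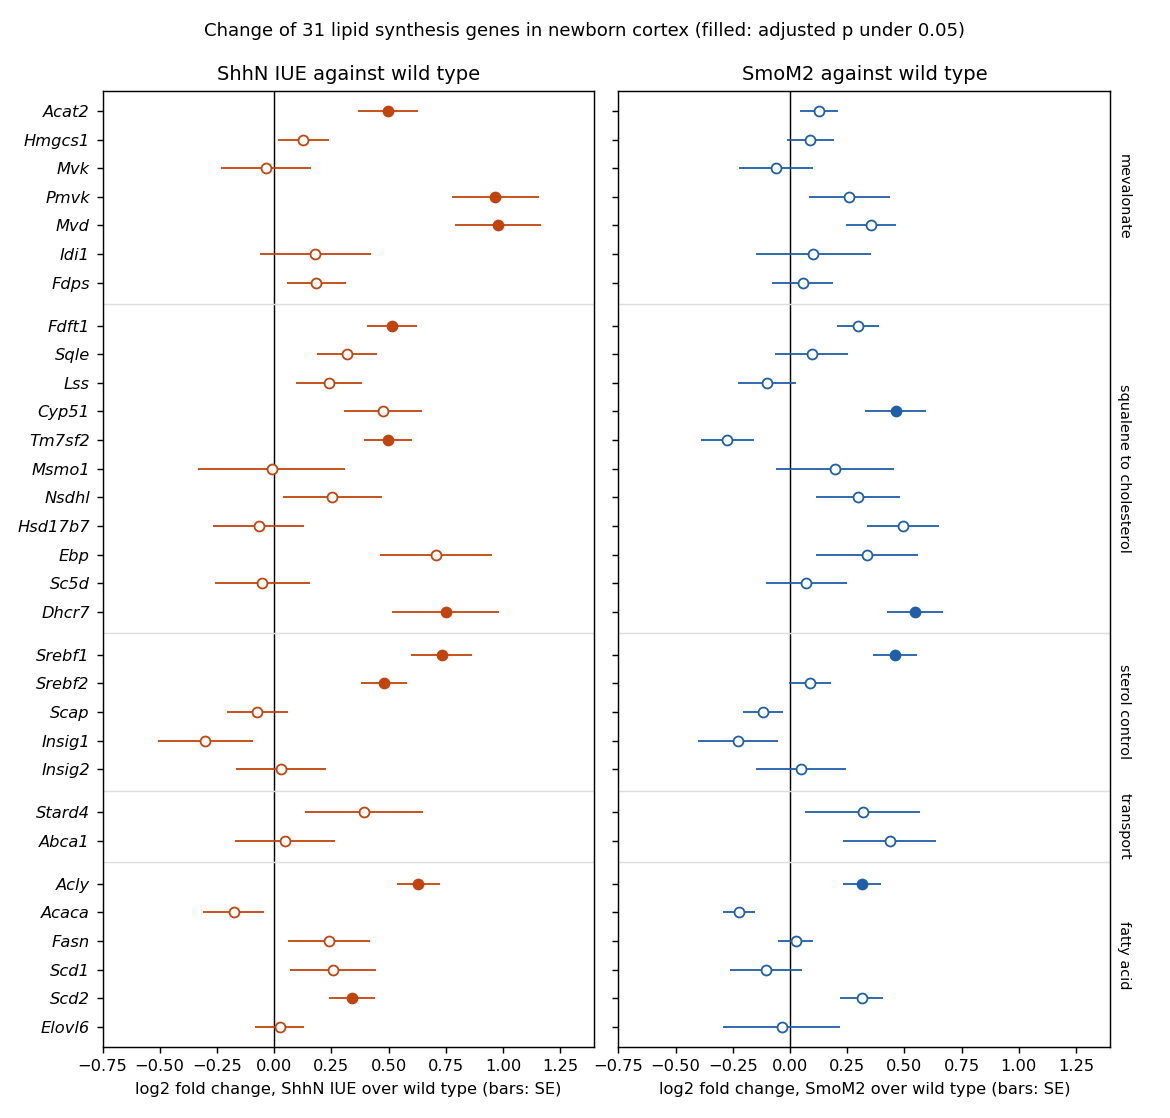
Log2 fold change and SE of each of the 31 genes by role, in ShhN IUE against wild type (left) and SmoM2 against wild type (right), with filled points where the adjusted p was under 0.05. On the left 10 points are filled, all above 0, with Mvd at 0.98 and Pmvk at 0.97 the highest. On the right 4 are filled, also above 0, with Dhcr7 at 0.54 the highest.

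In SmoM2 cortex 4 of the 31 genes rose and 0 fell relative to wild type, and 27 did not pass. Over all 16485 genes tested 9.59% rose and 9.29% fell. The median log2 fold change was 0.10 over the 31 genes and -0.0072 over all genes tested, and 23 of the 31 lay above 0, against 49.2% of all genes. In 9 genes all SmoM2 libraries lay above all wild-type libraries and in 2 all lay below, against 20.4% and 19.7% of all genes. At an unadjusted p under 0.05, 8 genes were higher and 2 lower. By adjusted p, limma-voom called 7 higher and 0 lower, and DESeq2 called 8 higher and 1 lower. Over all genes, limma-voom called 10.1% higher and DESeq2 10.9%. The count rested on single libraries: 0 genes passed without SmoM2 library 1 or without library 3, 1 without SmoM2 library 2, 2 without wild-type library 2, 3 without wild-type library 1 and 8 without wild-type library 3.

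Of the 4 genes that rose, Dhcr7 and Cyp51 lead on to cholesterol, Srebf1 controls the pathway and Acly belongs to the fatty acid genes. Dhcr7 had 55.5, 56.6 and 56.5 CPM in SmoM2, against 32.6, 38.3 and 44.7 CPM in wild type, a rise of 0.54 ± 0.12 (edgeR adjusted p = 0.0186). Srebf1 had 71.2, 62.9 and 68.6 CPM in SmoM2, against 51.1, 46.2 and 50.2 CPM in wild type, a rise of 0.46 ± 0.10 (edgeR adjusted p = 0.0132). Srebf1 was the only one of the 4 still called without SmoM2 library 2. Cyp51 (chr5:4081145-4104746) had 159, 161 and 156 CPM in SmoM2, against 98.1, 107 and 142 CPM in wild type, a rise of 0.46 ± 0.13 (edgeR adjusted p = 0.0455). Acly had 261, 277 and 279 CPM in SmoM2, against 231, 225 and 201 CPM in wild type, a rise of 0.32 ± 0.08 (edgeR adjusted p = 0.0319). In all 4 the SmoM2 libraries lay above the wild-type libraries, and in Dhcr7 and Cyp51 they lay closer together than the wild-type libraries did.

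**Figure D3:**
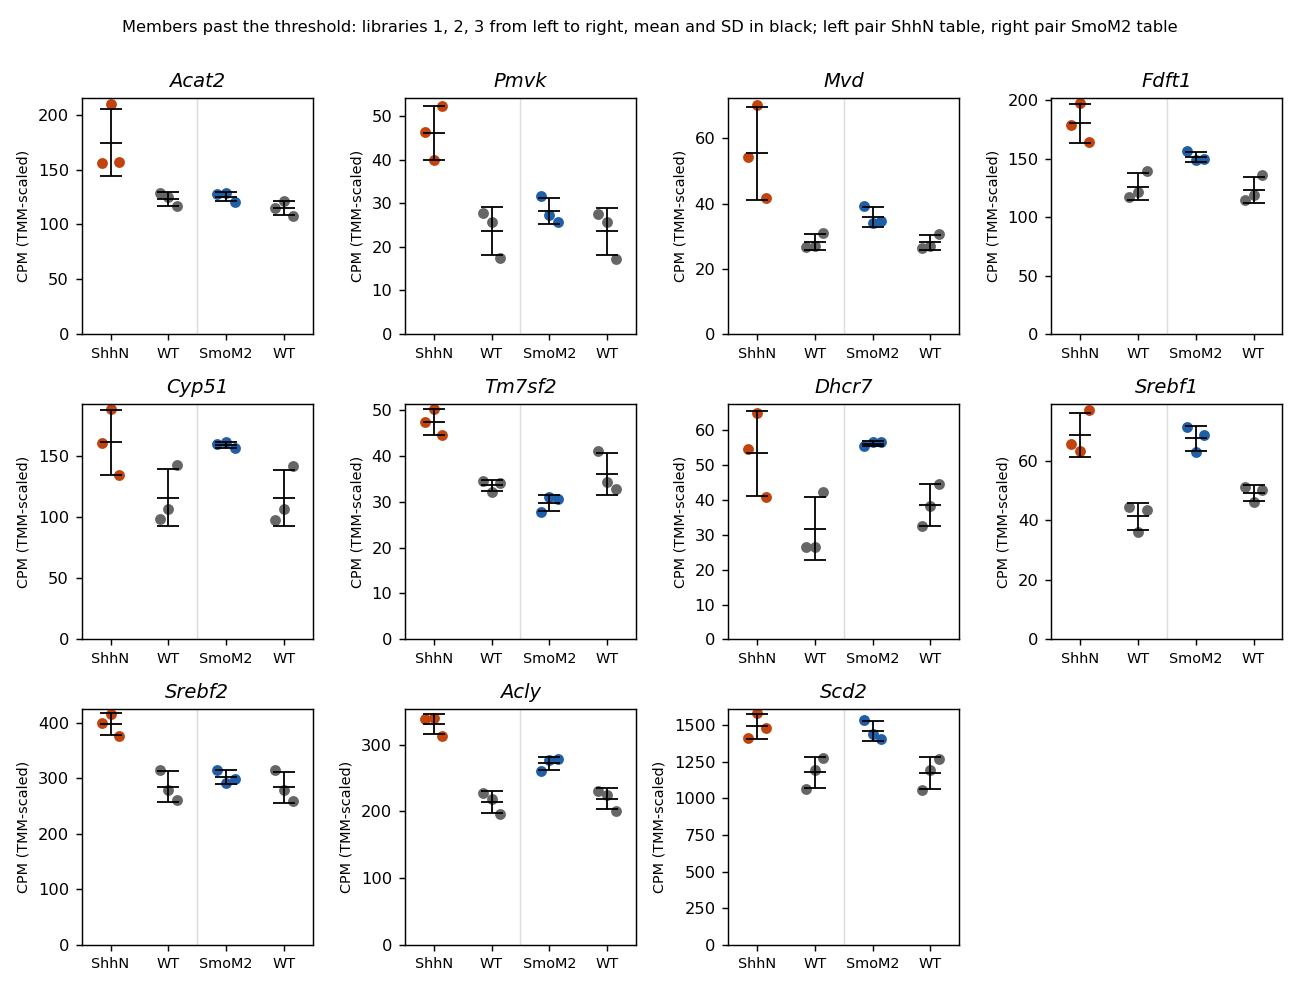
CPM in each library for the 11 genes that passed in at least 1 comparison with wild type, with libraries 1 to 3 from left to right and the mean and SD in black; ShhN IUE stands left of its wild type and SmoM2 left of its own. In Pmvk, Mvd, Srebf2 and Acat2 the ShhN IUE points lie apart from all others, and in Dhcr7 and Cyp51 the SmoM2 points lie close together.

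Genes just outside the threshold were Scd2, with a log2 fold change of 0.31 ± 0.09, Mvd with 0.35 ± 0.11, Fdft1 with 0.30 ± 0.09 and Hsd17b7 with 0.49 ± 0.16, all above 0 (edgeR adjusted p = 0.0503, 0.054, 0.0546 and 0.063). In each of these the groups did not overlap. Acaca was the gene nearest to the threshold among those below 0, with 168, 169.5 and 174 CPM in SmoM2 against 196, 200.2 and 201 CPM in wild type and a log2 fold change of -0.22 ± 0.07 (edgeR adjusted p = 0.0597). DESeq2 called it lower. Tm7sf2, one of the genes that rose in ShhN IUE, had 27.8, 30.97 and 30.5 CPM in SmoM2 against 41.1, 34.2 and 32.7 CPM in wild type, a log2 fold change of -0.27 ± 0.12 (edgeR adjusted p = 0.137).

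The mevalonate genes gave 0 rises in SmoM2 by edgeR. Besides Mvd, the log2 fold changes were 0.26 ± 0.18 for Pmvk, 0.13 ± 0.08 for Acat2, 0.10 ± 0.25 for Idi1, 0.09 ± 0.10 for Hmgcs1, 0.06 ± 0.13 for Fdps and -0.06 ± 0.16 for Mvk. Later in the pathway, the values were 0.34 ± 0.22 for Ebp, 0.30 ± 0.18 for Nsdhl, 0.20 ± 0.26 for Msmo1, 0.10 ± 0.16 for Sqle, 0.07 ± 0.18 for Sc5d and -0.10 ± 0.13 for Lss. Srebf2 stood at 0.09 ± 0.09, with 316, 292 and 299 CPM in SmoM2 against 314, 279 and 259 CPM in wild type. The controllers Scap, Insig1 and Insig2 gave -0.12 ± 0.09, -0.23 ± 0.17 and 0.05 ± 0.20. Abca1, whose protein exports cholesterol to lipoproteins, had 123, 143 and 126 CPM in SmoM2 against 64.1, 115 and 110.2 CPM in wild type. The groups were apart, yet its log2 fold change of 0.44 ± 0.20 did not pass (edgeR adjusted p = 0.17). Stard4 gave 0.32 ± 0.25, and Fasn, Scd1 and Elovl6 gave 0.02 ± 0.08, -0.10 ± 0.16 and -0.04 ± 0.25.

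Set side by side, Dhcr7, Srebf1 and Acly passed in both comparisons, though not equally firmly. In SmoM2 the call of Acly was lost under 6 of 14 alternative fits, that of Dhcr7 under 3 of 13 and that of Srebf1 under 2 of 13. In ShhN IUE the call of Dhcr7 was lost under 5 of 13, and those of Srebf1 and Acly under 0. Acat2, Pmvk, Mvd, Fdft1, Tm7sf2, Srebf2 and Scd2 passed in ShhN IUE, Cyp51 in SmoM2, and 20 genes in neither. Both comparisons use the same 3 wild-type libraries, so a low or high wild-type library enters both. Passing in one and not the other does not show a difference between the models, which was tested directly. In the authors' deposited tables, q was under 0.05 for 9 of the 31 genes in ShhN IUE, all of them among the 10 above, and for Cyp51, Dhcr7 and Srebf1 in SmoM2.

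SmoM2 was compared with ShhN IUE in a joint fit of all 9 libraries, restricted to genes whose wild-type counts agreed between the tables. The fit held 22 of the 31 genes, of which 0 were higher and 4 lower in SmoM2, against 8.45% higher and 8.07% lower among 12347 genes. The difference lay above 0 in 3 of the 22, against 49.3% of these genes, and the groups were apart in 1 gene higher and 6 lower, against 20.3% and 20.6%. DESeq2 and limma-voom also called 0 higher, and 0 were higher and 7 lower at an unadjusted p under 0.05. CPM in this fit are relative to fewer genes and stand above those given earlier. Pmvk averaged 42.8 ± 4.71 CPM in SmoM2 and 70.7 ± 9.07 CPM in ShhN IUE (SD, n = 3 each), a log2 difference of -0.72 ± 0.17 (edgeR adjusted p = 0.0171). Mvd averaged 54.5 ± 4.55 CPM in SmoM2 and 84.7 ± 22.0 CPM in ShhN IUE, a difference of -0.64 ± 0.17 (edgeR adjusted p = 0.0268). The differences of these adjacent enzymes of the mevalonate pathway lay within 1 SE of each other.

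Srebf2 averaged 458 ± 19.1 CPM in SmoM2 and 608 ± 33.3 CPM in ShhN IUE, a difference of -0.41 ± 0.09 (edgeR adjusted p = 0.0122). Acly averaged 413 ± 14.4 CPM in SmoM2 and 506 ± 26.4 CPM in ShhN IUE, a difference of -0.29 ± 0.08 (edgeR adjusted p = 0.0324). In all 4 genes no SmoM2 library reached the lowest ShhN IUE library. The number called lower was 0 without ShhN IUE library 1, without SmoM2 library 2 or without SmoM2 library 3, 2 without ShhN IUE library 2 or without SmoM2 library 1, and 6 without ShhN IUE library 3. Without wild-type library 1, Abca1 was called higher.

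The other 18 genes in the joint fit did not pass. Cyp51, called in SmoM2 alone, had a difference of -0.03 ± 0.15 with a 95% interval from -0.36 to 0.30. For Hmgcs1 the difference was -0.06 ± 0.10, with an interval from -0.27 to 0.16, and for Scd2 it was -0.04 ± 0.09, with an interval from -0.24 to 0.15. Lss and Fdft1 lay nearest to the threshold, at -0.36 ± 0.13 and -0.26 ± 0.10 (edgeR adjusted p = 0.0729 and 0.0874), and both had all SmoM2 libraries below all ShhN IUE libraries. Abca1 was the one gene of the 22 with all SmoM2 libraries above all ShhN IUE libraries, at 0.37 ± 0.19. Dhcr7, Srebf1, Acat2 and Tm7sf2 were among the 9 genes not tested in this fit, since their wild-type counts differed between the tables. Acat2 and Tm7sf2 missed the tolerance of 0.1 narrowly, at -0.101 and 0.107. With a tolerance of 0.2 both were tested and called lower in SmoM2, though the gap between the tables may enter these calls.

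The libraries of a group differed among themselves in these genes. The highest wild-type library exceeded the lowest by 1.5-fold or more in 13 of the 31 genes (41.9%) in the ShhN IUE table, against 18% of 11662 genes at or above the level of the lowest of the 31, and in 12 (38.7%) in the SmoM2 table, against 17.7% of 11613 such genes. Among ShhN IUE libraries this was so for 5 genes (16.1%), against 16.5% of such genes, and among SmoM2 libraries for 1 (3.23%), against 5.92%. The median ratio of highest to lowest library in the 31 genes was 1.34 in ShhN IUE, against 1.21 in such genes, and 1.10 in SmoM2, against 1.14. In wild type it was 1.35 in the ShhN IUE table and 1.41 in the SmoM2 table, against 1.24 in each. ShhN IUE library 3 was the lowest of its group in 22 genes (71%), against 43.8% of such genes. Wild-type library 1 was the lowest of its group in 17 genes (54.8%) in the ShhN IUE table, against 33.5% of such genes, and in 16 (51.6%) in the SmoM2 table, against 34.1%.

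Some sterol genes spread widely in wild type. Msmo1, the C4-methylsterol oxidase gene, had 50.3, 58.8 and 38.3 CPM in ShhN IUE libraries, against 26.1, 53.6 and 68.7 CPM in wild-type libraries 1 to 3. Idi1 had 41.1, 49.4 and 36.8 CPM in ShhN IUE, against 24.3, 39.2 and 49.0 CPM in wild type. Stard4 had 38.4, 41.7 and 42.6 CPM in ShhN IUE, against 18.9, 31.3 and 43.2 CPM in wild type. In all 3 genes wild-type library 1 was the lowest of the wild type and wild-type library 3 the highest, and so it was for Sc5d. Other genes went the other way: Pmvk, Nsdhl and Ebp were lowest in wild-type library 3. The meningeal markers given above were lowest in wild-type library 1 of the wild type and highest in ShhN IUE library 3 of the ShhN IUE libraries, and their part in this spread was not tested.

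**Figure D4:**
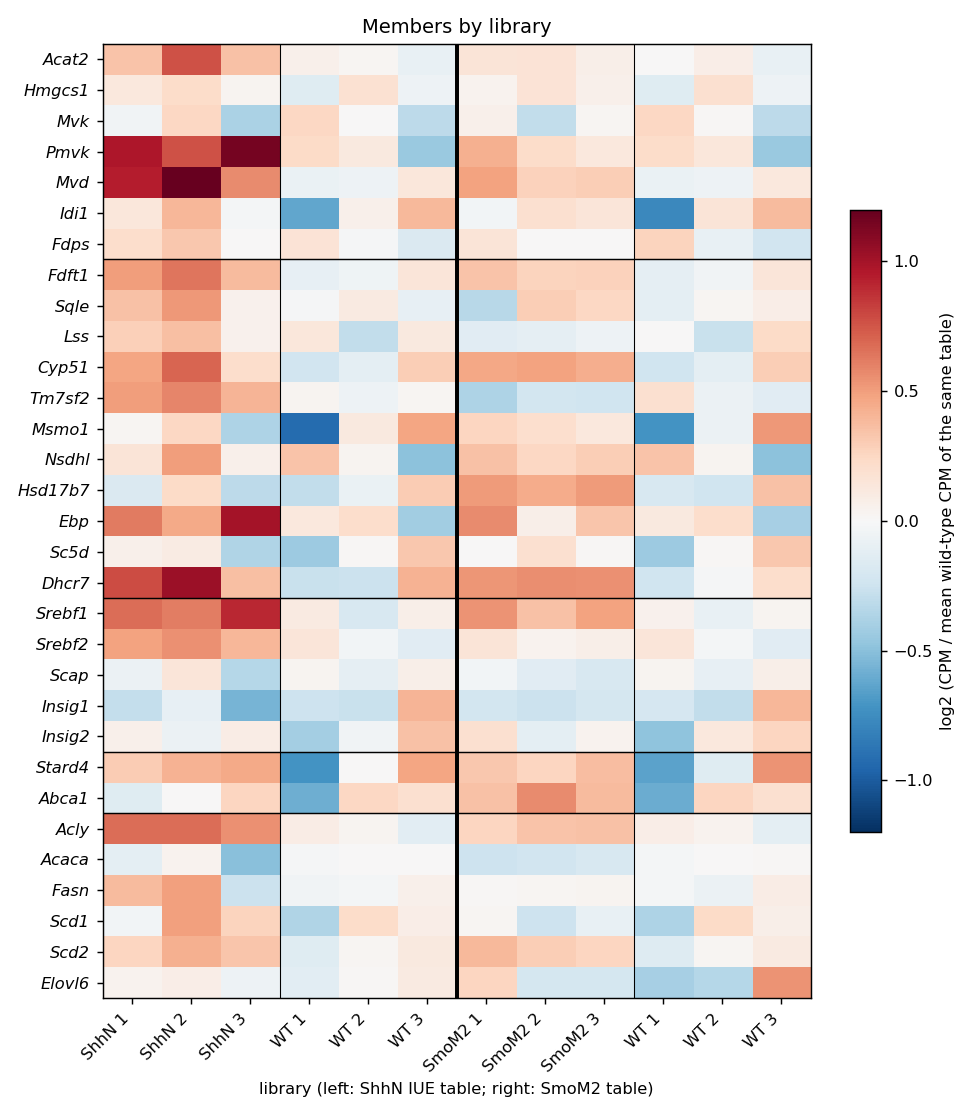
Log2 ratio of CPM to the mean wild-type CPM of the same table for each gene and library, with ShhN IUE and its wild type on the left and SmoM2 and its wild type on the right. Red cells fill the Pmvk, Mvd, Acly and Srebf1 rows of the 3 ShhN IUE libraries, the 3 SmoM2 columns look much alike, and wild-type library 1 is blue in Idi1, Msmo1, Stard4 and Abca1.

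Other lipid genes were counted in 4 further lists. Over all genes tested, 16.1% rose and 17.2% fell in ShhN IUE, and 9.59% rose and 9.29% fell in SmoM2. In the order below, the shares of the 4 lists that rose were 12.5%, 30%, 0% and 8.33% in ShhN IUE. In SmoM2 they were 6.25%, 20%, 0% and 25%. The lists are small, and whether they differ from all genes was not tested. Among 16 genes of fatty acid supply, elongation and desaturation, 2 rose and 3 fell in ShhN IUE and 1 rose and 3 fell in SmoM2. With single libraries left out these were 2 to 3 and 2 to 3 in ShhN IUE, and 0 to 1 and 1 to 2 in SmoM2. Me1, the gene of the malic enzyme that supplies NADPH for lipid synthesis, had log2 fold changes of -1.28 ± 0.11 in ShhN IUE and -0.64 ± 0.10 in SmoM2 (edgeR adjusted p = 0.000571 and 0.00466). The elongase gene Elovl4 fell by 0.79 ± 0.12 in ShhN IUE and by 0.38 ± 0.09 in SmoM2 (edgeR adjusted p = 0.00313 and 0.0255). Fads2, a desaturase gene for polyunsaturated fatty acids, rose by 0.87 ± 0.13 in ShhN IUE and by 0.46 ± 0.10 in SmoM2 (edgeR adjusted p = 0.00288 and 0.0158). The joint fit put the SmoM2 minus ShhN IUE differences at 0.62 ± 0.10 for Me1, 0.39 ± 0.10 for Elovl4 and -0.43 ± 0.12 for Fads2 (edgeR adjusted p = 0.00362, 0.0284 and 0.0329). In all 3 genes the estimated distance from wild type was smaller in SmoM2, and the sign of the difference held under each alternative. The call of Me1 also held throughout. Those of Elovl4 and Fads2 were each lost under 6 alternatives, among them leaving out SmoM2 library 1, 2 or 3.

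Of 20 tested genes for sterol sensing, transport, storage and clearance, 6 rose and 3 fell in ShhN IUE and 4 rose and 1 fell in SmoM2. With single libraries left out these were 4 to 6 and 1 to 3 in ShhN IUE, and 1 to 5 and 0 to 1 in SmoM2. Nr1h2, the liver X receptor beta gene, rose by 0.95 ± 0.13 in ShhN IUE and by 0.41 ± 0.10 in SmoM2 (edgeR adjusted p = 0.00186 and 0.0284), with a joint-fit difference of -0.48 ± 0.11 (edgeR adjusted p = 0.0131). Lrp1, a lipoprotein receptor gene, rose by 0.76 ± 0.10 in ShhN IUE and by 0.35 ± 0.08 in SmoM2 (edgeR adjusted p = 0.00163 and 0.022), with a difference of -0.42 ± 0.08 (edgeR adjusted p = 0.00864). Soat1, whose enzyme esterifies cholesterol for storage, rose by 0.99 ± 0.23 in ShhN IUE and by 0.99 ± 0.17 in SmoM2 (edgeR adjusted p = 0.0128 and 0.00613), and was not compared between the models because its wild-type counts differed between the tables. The sterol transporter gene Abcg4 rose by 0.51 ± 0.13 in ShhN IUE and by 0.38 ± 0.09 in SmoM2 (edgeR adjusted p = 0.0202 and 0.0218). Rnf139, a sterol-sensing ubiquitin ligase gene, fell by 0.99 ± 0.12 in ShhN IUE and by 0.50 ± 0.10 in SmoM2 (edgeR adjusted p = 0.00123 and 0.0105), with a difference of 0.48 ± 0.10 (edgeR adjusted p = 0.01).

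Of 11 genes that use isoprenoids for other products, 0 rose and 3 fell in ShhN IUE by edgeR, and 0 rose and 0 fell in SmoM2. At an unadjusted p under 0.05, 0 were higher and 4 lower in ShhN IUE, and 0 higher and 2 lower in SmoM2. DESeq2 called 0 higher and 3 lower in ShhN IUE, and 0 higher and 1 lower in SmoM2; limma-voom called 0 higher and 3 lower, and 0 in either direction. Without single libraries, 1 to 3 fell in ShhN IUE. Those that fell in ShhN IUE were the geranylgeranyl diphosphate synthase gene Ggps1, by 0.45 ± 0.12, the ubiquinone synthesis gene Coq2, by 0.66 ± 0.11, and the prenyltransferase gene Pggt1b, by 0.55 ± 0.13 (edgeR adjusted p = 0.025, 0.00442 and 0.0139). Of 12 fatty acid oxidation genes, 1 rose and 0 fell in ShhN IUE and 3 rose and 0 fell in SmoM2, and at an unadjusted p under 0.05 5 were higher and 0 lower in each. DESeq2 and limma-voom called 0 lower in either. The gene that rose in ShhN IUE was Acadvl, at 0.43 ± 0.12, and those in SmoM2 were Acadm at 0.63 ± 0.15, Acadl at 0.57 ± 0.16 and Hadha at 0.43 ± 0.12 (edgeR adjusted p = 0.0258, 0.024, 0.0367 and 0.0439). Acadl differed between SmoM2 and ShhN IUE by 0.71 ± 0.15 (edgeR adjusted p = 0.00983). The count of rises in this list ran between 0 and 3 in ShhN IUE and between 0 and 7 in SmoM2 as single libraries were left out.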

How the data were processed

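Bulk RNA sequencing covered 9 cortex libraries at postnatal day 0, in 3 groups of 3 taken from the labels. The authors deposited 2 tables, 1 for each comparison with wild type. Both hold raw read counts per gene, per the file headers, with totals of 15376071 to 26923127 per library. FPKM values and q-values in the same tables are the authors' own, per the file headers. HISAT2, StringTie, edgeR, GRCm38.p4 and mm10 are named in the submitters' processing notes, without versions or roles. Handling of strand and of reads with several matches is not given there, and reads shared by overlapping genes or by similar ones (Scd1 and Scd2) may be split either way.

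Counts as deposited were tested with edgeR 4.0.16 (R 4.3.3; quasi-likelihood F test, TMM scaling, filterByExpr by group, no covariate), with Benjamini-Hochberg adjustment over all genes tested and a threshold of 0.05. SmoM2 and ShhN IUE were compared in a joint fit of 9 libraries. It was limited to genes whose summed wild-type counts, with 5 added, agreed between tables within 0.1 (log2), and wild-type counts were averaged over the tables. Standard errors come from these fits. CPM are counts over the TMM-normalised library sizes of the genes that passed the filter, so they differ slightly from counts over the totals above. The procedure was tested on simulated data. Alternatives were RLE and upper quartile scaling, other filters on low counts (none, or 1 CPM in 3 libraries), DESeq2 1.42.0, limma-voom (limma 3.58.1), a replicate block, leaving out each library, the joint fit for the comparisons with wild type, and tolerances of 0.05 and 0.2.

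The 31 genes, the other lipid lists, the marker lists and the tests were chosen with earlier results of these data known. Each of the 31 is accounted for, and those past the threshold are given per library. Of each other lipid list, the text names genes past the threshold in both comparisons and otherwise up to 3 per comparison with the smallest adjusted p. Promoters are RefSeq windows of GRCm38.p6, matched by symbol for 25 of the 31 genes.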

Additional observations from a re-analysis of the deposited data

Results flagged for a closer look

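Among the 22 genes that could be compared, 4 differed between SmoM2 and ShhN IUE by the test of the difference itself. Pmvk averaged 42.8 CPM in SmoM2 and 70.7 CPM in ShhN IUE, a log2 difference of -0.72. Mvd averaged 54.5 CPM in SmoM2 and 84.7 CPM in ShhN IUE, a difference of -0.64. Srebf2 averaged 458 CPM in SmoM2 and 608 CPM in ShhN IUE, a difference of -0.41. Acly averaged 413 CPM in SmoM2 and 506 CPM in ShhN IUE, a difference of -0.29. All of these kept their sign under each alternative tried. The calls of Pmvk and Srebf2 were lost without ShhN IUE library 1, SmoM2 library 2 or SmoM2 library 3, and those of Mvd and Acly under these and further alternatives.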

How the results depend on the processing

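In ShhN IUE, 7 to 12 of the 31 genes rose and 0 fell as single libraries were left out, and all genes past the threshold numbered 3251 to 4624, against 5380 in the full fit; the lowest came from leaving out ShhN IUE library 1. In SmoM2, upper quartile scaling and limma-voom each gave 7 rises and DESeq2 gave 8 rises and 1 fall, 9 in all, against 4. Leaving out single libraries gave 0 to 8 rises there, and 1334 to 3010 genes in all, against 3112. For SmoM2 against ShhN IUE, leaving out single libraries gave 0 to 6 genes lower and 0 to 1 higher, and 834 to 2335 genes in all, against 4, 0 and 2040. The cause was not tested; these fits leave 2 samples in a group. Tolerances of 0.05 and 0.2 in wild-type agreement gave 4 lower of 18 genes and 6 lower of 28, the latter with Acat2 and Tm7sf2 besides Pmvk, Mvd, Srebf2 and Acly.

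With a replicate block, 8 genes rose in ShhN IUE, 3 rose in SmoM2 and 2 were lower in SmoM2 than in ShhN IUE, with 3962, 2468 and 1512 genes past the threshold in all. Deviations of same-numbered libraries correlated at 0.23, -0.3 and -0.137 for ShhN IUE with wild type, at -0.027, -0.095 and 0.063 for SmoM2 with wild type and at -0.196, 0.016 and -0.005 for SmoM2 with ShhN IUE. Those of other-numbered libraries ran from -0.219 to 0.388, from -0.11 to 0.141 and from -0.128 to 0.192 in the same order. These values gave no sign of pairing by number. With 3 libraries in a group they cannot show that there was none.

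Of 1242 values of single genes under alternatives, 1110 kept their direction and their side of the threshold, 48 lost a call, 33 gained one, and 51 changed sign where neither fit made a call. Other scalings moved the median of all genes by less than 0.1 on the log2 scale. The number of libraries, 3 a group, limits the precision of every fold change.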
